A study of Mus musculus with 40 samples.

Results

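Of 43629 genes counted by RNA sequencing in the mouse amygdala, 10 that changed after social interaction are described here: *Banp*, *Kdm7a*, *Mettl16*, *Ccdc6*, *Gpt2*, *P4ha1*, *Trib2*, *Ppp1r3c*, *9330159F19Rik* and *Brca2*. They were picked from the fold changes between mice killed after social interaction (SI) and naive mice in these same libraries, among the strong responses outside the classical immediate early, chaperone or clock genes. SI against naive is therefore given for these 10 genes as a description: fold changes, overlap and how many passed the edgeR threshold follow from the choice and carry no p-value here. The name under which they were grouped, less-studied genes, cannot be checked in expression data, and *Brca2* is a widely studied gene. The choice set no numeric limit. Ordered by p-value among the 15443 genes tested in germ-free mice, the 10 genes stood between place 2 (*Banp*) and place 1227 (*Trib2*). The places ran from 3 (*Ppp1r3c*) to 2459 (*Mettl16*) of 15220 in conventional mice. In mice colonised at weaning they ran from 8 (*Ppp1r3c*) to 5952 (*Brca2*) of 15264.

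The tissue was the left amygdala of male Swiss Webster mice aged 10 weeks. Conventional mice (CON) were compared with germ-free mice (GF) and with mice born germ-free and colonised at weaning by exposure to conventional bedding (exGF). Each status was sampled naive, in 4 libraries (CON, GF, exGF), and 1 hr after a 3-chamber test with an unfamiliar mouse and an object (CON-SI, n = 8; GF-SI, n = 12; exGF-SI, n = 8). Naive libraries were pools of RNA from several mice, except that 1 GF library (GF-P2) is listed as a single mouse, and SI libraries came from single mice, and the parents of CON mice were not those of GF mice. SI against naive thus also sets single mice against mostly pooled ones and a test session with handling against none, which cannot be told apart from the social stimulus. GF mice were housed in isolators and exGF mice next to CON mice in the standard unit, and the unfamiliar mouse was conventionally raised. In GF the response therefore also holds the contact of isolator-housed mice with a conventional mouse, which cannot be told apart either. Libraries held between 7291810 and 19961958 counts assigned to genes. In 5 libraries the ribosomal RNA transcript *Gm42418* took between 6.23% and 32.3% of the counts, against at most 1.75% in the other libraries. These 5 were 2 CON pools (CON-P1 and CON-P3), 2 exGF pools (exGF-P1 and exGF-P2) and 1 exGF-SI mouse (exGF-S7), so GF and GF-SI held none of them. All 5 amygdala marker genes examined were detected, with a summed level between 100.2 and 196 counts per 10 to the power 6 (CPM, scaled to the library's size) in every library. Choroid plexus markers (6 of 6 detected) summed to between 21.1 and 305 CPM in naive pools. After SI their medians were 43.8 CPM in conventional, 55.4 CPM in germ-free and 62.2 CPM in colonised mice, with single mice of the last 2 groups reaching 1032 and 1474 CPM, and their part in the results was not tested. In bulk tissue, fewer cells of a type and less RNA per cell cannot be told apart.

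The 10 genes act in different parts of the cell. *Banp* encodes a nuclear protein that binds an unmethylated palindromic CG-rich element in promoters, *Kdm7a* a Jumonji C (JmjC) demethylase that removes repressive methyl groups from histone tails, and *Mettl16* an RNA methyltransferase that places N6-methyladenosine (m6A) on the U6 spliceosomal RNA and on the mRNA of *Mat2a*, the enzyme that makes S-adenosylmethionine. *Ccdc6* encodes a coiled-coil protein that restrains CREB1 and binds the PP4 phosphatase. *Gpt2* is the mitochondrial alanine aminotransferase, which links glutamate to pyruvate. *P4ha1* is a catalytic subunit of collagen prolyl hydroxylase in the endoplasmic reticulum and a classical hypoxia target. *Trib2* is a pseudokinase that brings substrates to the ubiquitin ligase COP1. *Ppp1r3c* targets protein phosphatase 1 to glycogen and promotes its synthesis, which in brain takes place mainly in astrocytes. *Brca2* acts in the repair of DNA breaks by homologous recombination. *9330159F19Rik* carries only a clone name and is annotated as protein coding.

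The promoter letters of these genes are shown because they are what the genes could share beyond the fold change used to pick them. RefSeq promoter windows of 300 bases (GRCm38.p6, 250 before to 50 after the start site) matched 9 of the 10 symbols, all but *Banp*. In the 5 stretches below, written 5′ to 3′ on the gene's strand, capitals mark the match.
Mettl16, chr11:74770730-74770829, plus strand, core of the element bound by BANP 44 bases upstream of the start: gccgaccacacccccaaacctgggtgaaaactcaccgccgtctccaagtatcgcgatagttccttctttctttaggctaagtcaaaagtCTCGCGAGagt
Brca2, chr5:150522521-150522620, plus strand, cAMP response element 20 bases upstream of the start: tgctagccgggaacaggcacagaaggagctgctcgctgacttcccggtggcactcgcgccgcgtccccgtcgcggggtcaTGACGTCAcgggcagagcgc
9330159F19Rik, chr10:29211625-29211654, plus strand, cAMP response element 7 bases upstream of the start: ctccaagtcccTGACGTCAtagtagcccag
Ppp1r3c, chr19:36736656-36736755, minus strand, E-box 104 bases upstream of the start: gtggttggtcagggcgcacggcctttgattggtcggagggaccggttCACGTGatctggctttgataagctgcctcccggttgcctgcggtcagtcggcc
Ccdc6, chr10:70096881-70096980, plus strand, E-box 193 bases upstream of the start: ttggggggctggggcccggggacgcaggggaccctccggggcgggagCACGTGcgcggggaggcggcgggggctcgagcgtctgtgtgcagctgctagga

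The 8 motifs were searched on both strands of the whole window. The cAMP response element (TGACGTCA) was in the windows of *Brca2* and *9330159F19Rik*, the single gene that fell and a gene that rose, and in 1.79% of all 32851 windows. The 8-base core of the BANP element (CTCGCGAG) was found in *Mettl16* alone among the 9, and in 0.919% of all windows. An E-box (CACGTG) stood in *Ppp1r3c* and *Ccdc6* and in 7.15% of all windows. The shorter hypoxia core (ACGTG), which every E-box contains, was in 5 of the 9, including *P4ha1*, against 19.6% of all windows. None of the 9 windows held the AP-1 site TGAGTCA (5.20% of all windows), the ATF4 element TGATGCAA (0.895%), the heat shock element GAANNTTC (7.86%) or the glucocorticoid response element ACANNNTGT (6.85%). None of the 8 motifs was thus shared by all 9 genes, and a match in letters is not a bound site.

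**Figure D1:**
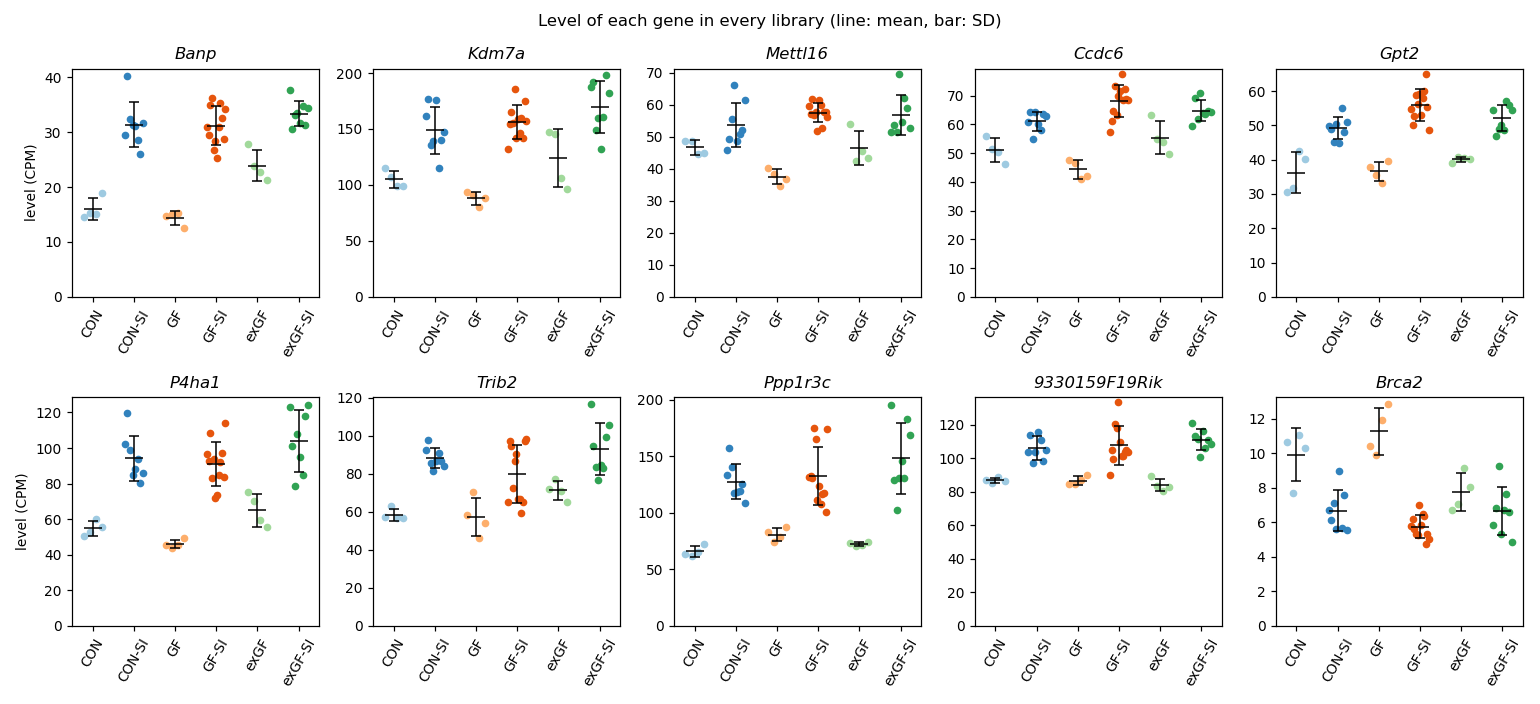
Level of each of the 10 genes (y axis, CPM, from 0) in every library (points) of the 6 groups, with the group mean (line) and SD (bar). *Banp* went from at most 15.3 CPM in GF to at least 25.3 CPM in GF-SI, and *Brca2* alone had lower means after SI.

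Of the 10 genes, 9 had a higher mean after SI than in naive mice in all 3 colonisation statuses, and *Brca2* a lower one in all 3. In CON, 8 genes passed edgeR at an adjusted p below 0.1 upwards and 1 downwards, where 2.35% and 1.37% of all tested genes did. In GF these counts were 9 and 1, against 7.87% and 5.86%, and in exGF 9 and 0, against 4.6% and 3.01%. *Mettl16* in CON and *Brca2* in exGF were the 2 that did not pass. The SI and naive libraries did not overlap for 7 genes in CON, 9 in GF and 5 in exGF, where 3.55%, 3.19% and 4.49% of all tested genes had no overlap. These counts follow from the way the genes were picked. Without the 5 libraries rich in *Gm42418*, 4 genes passed in CON and 5 in exGF, where 0.164% and 0.978% of all genes did, while GF held no such library. The fold changes kept their direction, for example 0.53 for *Kdm7a* and 0.45 for *Gpt2* in CON, which were among those that no longer passed.

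*Banp* (ENSMUSG00000025316; chromosome 8, 121949750 to 122029258 of GRCm38, plus strand) had the largest fold change of the set in GF, and in CON it was within 1 SE of *Ppp1r3c*. It was at 14.6, 15.0, 15.3 and 18.9 CPM in the CON pools and between 26.1 and 40.2 CPM in CON-SI (median 31.2). In GF it was at 12.6, 14.7, 15.2 and 15.3 CPM, and in GF-SI it ranged from 25.3 to 36.3 CPM (median 31.01). The exGF pools stood apart from both other naive groups, at 21.3, 22.7, 23.8 and 27.8 CPM, below all exGF-SI mice at 30.6 to 37.7 CPM (median 33.3). The log2 fold change from naive to SI was 0.97 (SE 0.11) in CON, 1.11 (SE 0.10) in GF and 0.49 (SE 0.08) in exGF. The 3 SI groups overlapped, and the naive level was highest in exGF. Counting without regard to strand, *Banp* shares 252 exonic bases with *Gm27011* on the opposite strand, which is also in the counts. Reads lying wholly in these bases could not be assigned to either gene, and the part of this overlap in the level of *Banp* was not tested.

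*Kdm7a* (ENSMUSG00000042599; chromosome 6, 39136623 to 39206789, minus strand) was at 98.7 to 115 CPM in CON and at 115 to 177 CPM in CON-SI (median 144). GF pools were lower, at 80.2, 88.2, 90.6 and 93.5 CPM, and GF-SI mice higher than all of them, at 132 to 186 CPM (median 156). The exGF pools split, with 96.7 and 106 CPM in the 2 pools poor in *Gm42418* and 146 and 147 CPM in the 2 rich ones. The latter overlapped with exGF-SI, at 132 to 198 CPM (median 171). Log2 fold changes were 0.50 (SE 0.11), 0.82 (SE 0.08) and 0.46 (SE 0.13) in CON, GF and exGF, and the exGF value was 0.76 (SE 0.14) without the rich libraries. *Kdm7a* shares 287 exonic bases with the antisense transcript *4930599N23Rik*.

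*Mettl16* (ENSMUSG00000010554; chromosome 11, 74770830 to 74828525, plus strand) had its largest fold change in GF. GF pools held 34.6, 36.8, 38.4 and 40.3 CPM and GF-SI mice 51.8 to 61.6 CPM (median 57.6), a log2 fold change of 0.61 (SE 0.06). CON pools lay at 44.4 to 48.7 CPM and overlapped with CON-SI at 45.8 to 66.1 CPM (median 51.5), with a log2 fold change of 0.20 (SE 0.09). In exGF, 1 pool rich in *Gm42418* at 54.0 CPM stood above the others at 42.5, 43.3 and 45.5 CPM, and exGF-SI mice ranged from 51.3 to 69.5 CPM (0.29, SE 0.09).

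*Ccdc6* (ENSMUSG00000048701; chromosome 10, 70097121 to 70193200, plus strand) also had its largest fold change in GF. GF pools were at 41.1, 42.0, 46.5 and 47.8 CPM and GF-SI at 57.5 to 77.6 CPM (median 68.6), which is the highest group mean of this gene. CON pools were at 46.2 to 56.2 CPM against 55.0 to 64.2 CPM in CON-SI (median 61.9), and exGF pools at 49.7 to 63.3 CPM against 59.3 to 70.9 CPM in exGF-SI (median 64.3). In both of the latter statuses the groups overlapped. The log2 fold changes were 0.26 (SE 0.07) in CON, 0.61 (SE 0.07) in GF and 0.23 (SE 0.07) in exGF.

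For the metabolic enzyme *Gpt2* (ENSMUSG00000031700; chromosome 8, 85492576 to 85527560, plus strand), naive pools ranged from 30.6 to 42.5 CPM in CON, from 33.2 to 39.5 CPM in GF and from 39.0 to 40.7 CPM in exGF. After SI it ranged from 44.9 to 55.1 CPM in CON-SI (median 49.4), from 48.6 to 64.8 CPM in GF-SI (median 55.8) and from 47.0 to 57.0 CPM in exGF-SI (median 52.3), above every naive pool. Its log2 fold changes were 0.43 (SE 0.09), 0.61 (SE 0.07) and 0.38 (SE 0.07). In CON the 2 rich pools gave 1 low and 1 high value, 30.6 and 42.5 CPM.

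*P4ha1* (ENSMUSG00000019916; chromosome 10, 59323296 to 59373304, plus strand) was at 43.9, 45.3, 45.4 and 49.3 CPM in GF and at 71.8 to 114 CPM in GF-SI (median 92.3), a 1.97-fold higher level by the fit. CON pools were at 50.8 to 60 CPM and CON-SI mice above them at 80.3 to 120 CPM (median 91.1). In exGF the pools rich in *Gm42418* were again the upper ones, 70.4 and 75.2 CPM against 55.4 and 59.3 CPM, and all lay below exGF-SI at 78.4 to 124 CPM (median 105). Log2 fold changes were 0.78 (SE 0.10), 0.98 (SE 0.11) and 0.68 (SE 0.13).

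*Ppp1r3c* (ENSMUSG00000067279; chromosome 19, 36731731 to 36736653, minus strand) was the gene with the largest fold change of the set in exGF and, per kilobase of exon, the most abundant of the 10 in naive CON mice. Naive pools lay between 61.4 and 72.6 CPM in CON, 74.5 and 87.0 CPM in GF, and 70.1 and 74.1 CPM in exGF. SI libraries reached 109 to 157 CPM in CON-SI (median 122), 101 to 175 CPM in GF-SI (median 127) and 102 to 195 CPM in exGF-SI (median 139), without overlap with their pools. Log2 fold changes were 0.95 (SE 0.10), 0.71 (SE 0.14) and 1.04 (SE 0.14). All 8 astrocyte markers were detected, and their summed level gave overlapping ranges before and after SI, at 3786 to 5644 and 3576 to 4496 CPM in CON, 3519 to 4739 and 3667 to 5288 CPM in GF, and 3654 to 4845 and 3153 to 4885 CPM in exGF.

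*Trib2* (ENSMUSG00000020601; chromosome 12, 15791727 to 15816922, minus strand) varied most between germ-free mice. CON pools were close together at 56.5, 56.6, 57.1 and 63.0 CPM and far below CON-SI at 81.6 to 97.8 CPM (median 86.7). The GF libraries were at 46.0, 54.2, 58.5 and 70.5 CPM, the last being GF-P2, listed as a single mouse. The GF-SI mice formed a lower set of 6 at 59.4 to 72.7 CPM and an upper set of 6 at 86.9 to 98.2 CPM. The lower set overlapped with GF-P2 alone, and all GF-SI mice lay above the other GF libraries. In exGF, pools at 65.2, 70.8, 71.8 and 77.2 CPM overlapped narrowly with exGF-SI mice at 76.5 to 117 CPM (median 89.8). Log2 fold changes were 0.60 (SE 0.07), 0.48 (SE 0.15) and 0.39 (SE 0.10), and the GF value ranged from 0.39 to 0.59 when a library was left out, without passing when this was GF-P3 or GF-P4.

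*9330159F19Rik* (ENSMUSG00000004360; chromosome 10, 29211606 to 29230779, plus strand) had a small and even shift. Its 12 naive pools lay within 80.5 to 90.1 CPM, and its SI libraries at 96.9 to 116 CPM in CON-SI, 90.3 to 134 CPM in GF-SI and 100 to 121 CPM in exGF-SI. The log2 fold changes were 0.29 (SE 0.07), 0.31 (SE 0.08) and 0.40 (SE 0.06). *9330159F19Rik* shares 397 exonic bases with the protein-coding gene *Gm49353* on the same strand, which is not among the genes counted. Reads of *Gm49353* from these bases cannot be told apart from its own.

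*Brca2* (ENSMUSG00000041147; chromosome 5, 150522630 to 150570329, plus strand) was the least abundant of the 10 genes, with at most 145 counts in a CON library, and it moved the opposite way. CON pools held 7.69, 10.3, 10.6 and 11.1 CPM and CON-SI 5.57 to 8.94 CPM (median 6.41), which overlapped. GF pools held 9.88, 10.4, 11.9 and 12.8 CPM, all above GF-SI at 4.74 to 6.98 CPM (median 5.69). The exGF pools were lower, at 6.71 and 7.06 CPM in those rich in *Gm42418* and 8.04 and 9.16 CPM in the other 2, and overlapped with exGF-SI at 4.86 to 9.25 CPM (median 6.64). Log2 fold changes were -0.57 (SE 0.15) in CON, -0.98 (SE 0.10) in GF and -0.23 (SE 0.16) in exGF, the last being -0.40 (SE 0.21) without the rich libraries.

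**Figure D2:**
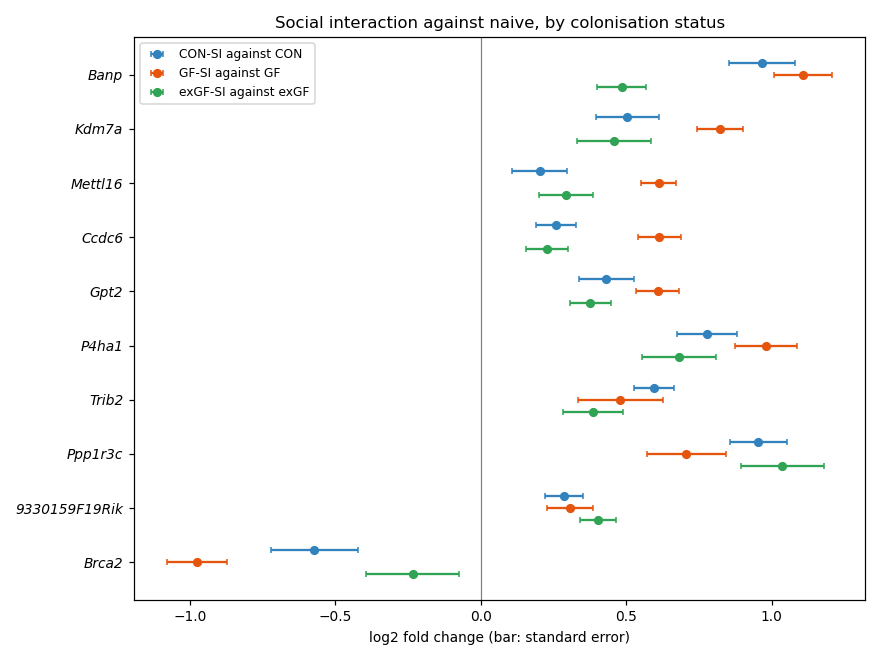
Log2 fold change from naive to SI (x axis, with standard error bars) of the 10 genes in CON, GF and exGF mice. Points right of 0 are higher after SI. The GF point is outermost for 7 genes, among them *Mettl16* at 0.61 against 0.20 and 0.29.

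Per kilobase of exon, naive CON levels ran from 24.1 CPM for *Ppp1r3c* through 15.1 for *9330159F19Rik*, 13.5 for *Trib2*, 13.3 for *P4ha1*, 10.4 for *Kdm7a*, 8.01 for *Ccdc6*, 6.42 for *Gpt2*, 3.38 for *Mettl16* and 2.404 for *Banp* to 0.727 for *Brca2*. The fold change did not follow this order, since *Banp*, next to last in level, had the largest rise in GF.

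The size of the response differed between statuses for some of the genes, given here as differences of log2 fold changes without a test. The genes were picked on the contrasts that make up these differences, so the SEs cannot decide them. The GF response exceeded the CON response by 0.41 (SE 0.11) for *Mettl16*, 0.36 (SE 0.09) for *Ccdc6* and 0.32 (SE 0.15) for *Kdm7a*, and *Brca2* fell by 0.40 (SE 0.19) more. With the *Gm42418*-rich libraries left out, GF minus CON was 0.42 (SE 0.13) for *Mettl16*, 0.30 (SE 0.11) for *Ccdc6*, 0.30 (SE 0.16) for *Kdm7a* and -0.54 (SE 0.22) for *Brca2*. The exGF response was below the GF response by a log2 difference of -0.63 (SE 0.13) for *Banp*, -0.39 (SE 0.09) for *Ccdc6*, -0.37 (SE 0.15) for *Kdm7a*, -0.32 (SE 0.11) for *Mettl16* and -0.23 (SE 0.11) for *Gpt2*, and the fall of *Brca2* was smaller by 0.74 (SE 0.19). Without the *Gm42418*-rich libraries these exGF minus GF values were -0.53 (SE 0.16), -0.30 (SE 0.11), -0.08 (SE 0.16), -0.29 (SE 0.13), -0.27 (SE 0.11) and 0.56 (SE 0.23). The value that moved most was that of *Kdm7a*, from -0.37 to -0.08. Between exGF and CON the largest difference in size was that of *Banp* (-0.48, SE 0.14), and this was -0.29 (SE 0.18) without the rich libraries. For *Ppp1r3c* GF minus CON was -0.25 (SE 0.19), exGF minus CON 0.08 (SE 0.19) and exGF minus GF 0.33 (SE 0.18). The same differences were -0.11 (SE 0.17), -0.21 (SE 0.17) and -0.10 (SE 0.17) for *Trib2*. They were 0.02 (SE 0.09), 0.11 (SE 0.10) and 0.09 (SE 0.09) for *9330159F19Rik*.

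The next question was whether the genes differed between colonisation statuses before any test. The naive libraries are also the baseline of the responses on which the genes were picked. A low or high naive level in 1 status thus favoured the choice of a gene. The p-values and counts below therefore cannot decide whether a gene differed. The SI libraries, compared further below, entered the choice as well. By edgeR none of the 10 passed in GF against CON, where 0.142% of genes did, with 5 of the 10 at an unadjusted p below 0.05 (as were 1636 of all 14811 genes) and none called by DESeq2. None passed in exGF against CON, where 0.104% of genes did, with 3 at an unadjusted p below 0.05 (5.43% of all genes) and 1 called by DESeq2. None passed in exGF against GF, where edgeR called 0% of genes, with 8 of the 10 at an unadjusted p below 0.05 (9.42% of all genes) and 3 called by DESeq2. The pools did not overlap for 4 genes in GF against CON, 2 in exGF against CON and 7 in exGF against GF, against 5.93%, 3.58% and 5.17% of all tested genes.

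*Banp* was the clearest of these cases. Its exGF pools exceeded those of CON by 0.56 (SE 0.12) and those of GF by 0.72 (SE 0.11) on the log2 scale, with edgeR adjusted p of 0.232 and 0.169. DESeq2 gave adjusted p of 0.0339 and 9.97e-05 for the same comparisons. Over the alternatives other than removal of each library in turn, their adjusted p ran from 0.0287 to 0.999 and from 9.97e-05 to 0.962. With only the 2 exGF pools poor in *Gm42418*, the difference from the corresponding 2 CON pools was 0.36 (SE 0.15). That from the GF libraries, all of them kept, was 0.61 (SE 0.12).

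*Kdm7a* was lower in GF than in CON pools without overlap (-0.25, SE 0.09, edgeR adjusted p = 0.348) and higher in exGF than in GF (0.48, SE 0.13, edgeR adjusted p = 0.393). The latter difference was 0.21 (SE 0.10) without the rich libraries. *P4ha1* showed -0.25 (SE 0.09) and 0.49 (SE 0.10) in the same comparisons, with edgeR adjusted p of 0.329 and 0.275, the second being 0.32 (SE 0.10) without the rich libraries. *Brca2* was lower in exGF than in GF pools by -0.53 (SE 0.14), or -0.39 (SE 0.16) without them (edgeR adjusted p = 0.391). *Mettl16* was 0.31 lower in GF than in CON pools on the log2 scale (SE 0.08, edgeR adjusted p = 0.275). *Ppp1r3c* went the other way, 0.30 higher in GF pools (SE 0.09, edgeR adjusted p = 0.308). The part of the *Gm42418*-rich pools in the exGF differences was not tested beyond these values.

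**Figure D3:**
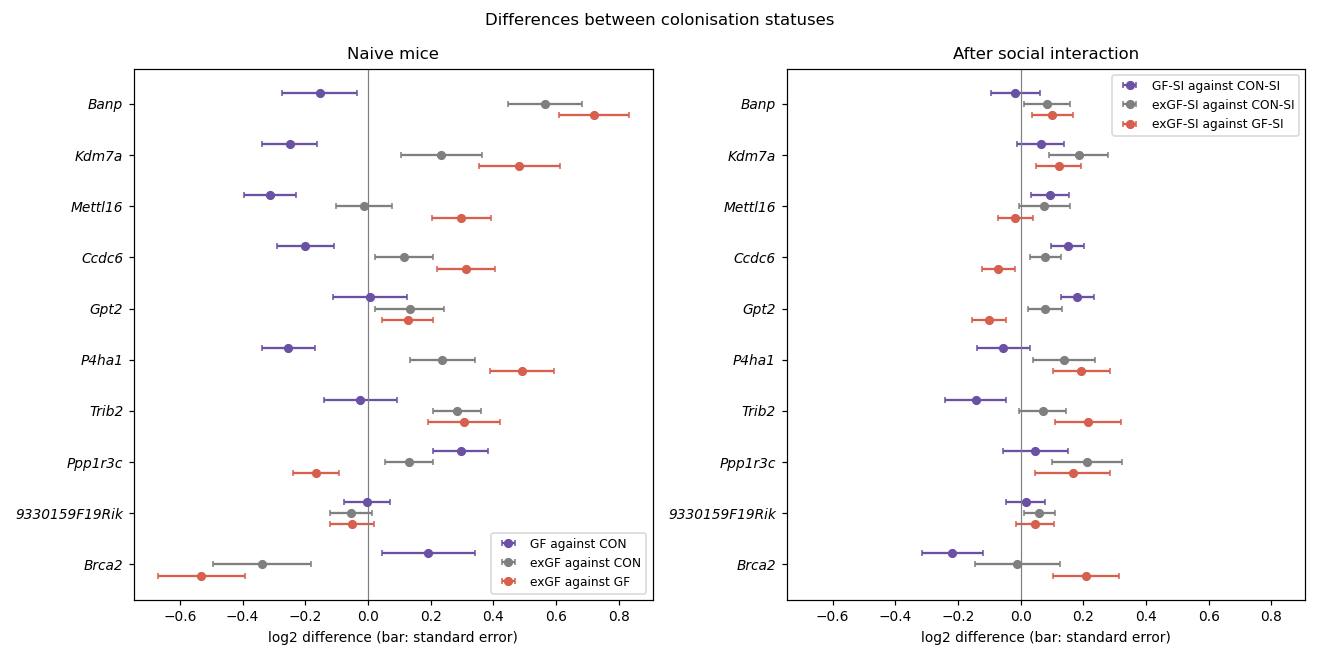
Log2 differences between colonisation statuses (x axis, with standard error bars) for the 10 genes in naive mice (left) and after SI (right), on the same scale. Naive differences reach 0.72 for *Banp*, whereas after SI the differences lie between -0.22 and 0.22.

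After SI, the 3 groups overlapped for each of the 10 genes. None passed by edgeR in GF-SI against CON-SI, where 1.1% of genes did, in exGF-SI against CON-SI, where 1.31% did, or in exGF-SI against GF-SI, where 0.0995% did. Unadjusted p-values below 0.05 were found for 3, 0 and 1 of the 10 genes, against 16.5%, 13.5% and 12.9% of all genes, and DESeq2 called 1, 0 and 0. The largest of these differences by p-value was that of *Gpt2*, higher in GF-SI than in CON-SI by 0.18 (SE 0.05, edgeR adjusted p = 0.129), which DESeq2 called at an adjusted p of 0.0499 and which stayed between 0.16 and 0.20 when any library was left out. *Ccdc6* was 0.15 higher (SE 0.05, edgeR adjusted p = 0.184) and *Brca2* differed by -0.22 (SE 0.10, edgeR adjusted p = 0.281) in the same comparison. That these tests missed the threshold does not show equal levels.

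A model with colonisation status and state (naive or SI) over all 40 libraries gave no call among the 10 genes. The shares of all genes called were 1.59% for GF against CON, 2.07% for exGF against CON and 0.161% for exGF against GF. In edgeR, 1, 4 and 4 of the 10 genes had an unadjusted p below 0.05, against 12.9%, 12.3% and 9.22% of all genes, and DESeq2 was not run on this model. The smallest adjusted p was that of *Banp* in exGF against CON, 0.128, at a log2 difference of 0.25 (SE 0.08), followed by 0.140 for *Banp* (0.28, SE 0.07) and *P4ha1* (0.28, SE 0.07) in exGF against GF. Without the *Gm42418*-rich libraries the *Banp* differences were 0.14 (SE 0.08, edgeR adjusted p = 0.479) and 0.21 (SE 0.07, edgeR adjusted p = 0.325), and that of *P4ha1* was 0.25 (SE 0.07).

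The genes were then set against the pathways they belong to. These lists were set up by function and leave out the 10 genes. Their counts stand against the shares of all genes that rose and fell, which were 7.87% and 5.86% in GF, 2.35% and 1.37% in CON and 4.6% and 3.01% in exGF, and a list's count near these shares is no result about the list. GF-SI against GF is described first since it holds no *Gm42418*-rich library. Where 5 or fewer genes passed, those named outside the rule for named genes were added after their values were seen. Of 18 tested m6A writers, readers and erasers, 10 rose and 0 fell in GF, with a median log2 fold change of 0.21 against -0.0099 over all genes. *Mettl3*, the catalytic subunit of the main m6A writer, rose from 12.4 ± 1.15 to 17.0 ± 1.80 CPM (SD; log2 fold change 0.46, SE 0.09, edgeR adjusted p = 0.00709), and the nuclear reader *Ythdc1* by 0.45 (edgeR adjusted p = 0.0113). *Zc3h13*, a subunit of the writer complex, rose by 0.41 (edgeR adjusted p = 0.0138). In exGF 6 of the 18 rose and 0 fell, *Mettl3* and *Ythdc1* among them, and in CON the demethylase *Alkbh5* (0.29) and the writer subunit *Rbm15b* (0.22) rose and the demethylase *Fto* fell by 0.31.

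*Mat2a*, whose mRNA METTL16 methylates, rose in all 3 statuses, by 0.40 in CON (edgeR adjusted p = 0.0462), 0.46 in GF (0.0167) and 0.34 in exGF (0.0693). In the methionine and S-adenosylmethionine cycle 4 of 9 tested genes rose and 1 fell in GF, with *Mtr* (0.37) and *Mtrr* (0.36), which regenerate methionine, and *Amd1* (0.33), which uses S-adenosylmethionine for polyamines, among those that rose. *Mat2b*, the regulatory partner of *Mat2a*, fell by 0.23. *Mat2a* was the single gene of this list that passed in CON and in exGF.

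Among 21 JmjC demethylases and hydroxylases, 9 rose and 2 fell in GF, against 6 and 0 in exGF and 1 and 0 in CON. *Phf8*, a close relative of *Kdm7a*, rose from 26.8 ± 2.15 to 36.5 ± 2.15 CPM in GF (log2 fold change 0.44, SE 0.07, edgeR adjusted p = 0.000778). *Phf2*, the other close relative, was at 0.10 (SE 0.08, edgeR adjusted p = 0.483). *Kdm6b*, which demethylates lysine 27 of histone H3, rose by 0.93 in GF (edgeR adjusted p = 0.0018) and by 0.66 in exGF (0.0639), with 0.37 in CON (0.106). *Kdm4d* fell by 0.76 (edgeR adjusted p = 0.00783) and *Kdm6a* by 0.26 (0.0283) in GF. The single gene that rose in CON was *Kdm3a* (0.55, 0.0469), which also rose in GF (0.36, 0.0115) and exGF (0.28, 0.0767).

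The BEN domain family of *Banp* did not move with it. Of 7 other members 1 fell in GF (*Bend3*, -0.58, edgeR adjusted p = 0.0405) and none passed in CON or exGF. Genes whose RefSeq promoter window holds the BANP core, apart from the 10, were described without a test. In GF, 31 of 224 rose (13.8%) and 23 fell (10.3%), against 8.14% and 5.67% of 11029 genes without it, with medians of 0.018 and -0.0036 on the log2 scale. In CON 2 rose (0.897%) and 3 fell (1.34%) of 223, against 2.46% and 1.49% without it. In exGF 17 rose (7.59%) and 6 fell (2.68%) of 224, against 4.60% and 3.22%. For genes with the cAMP response element, 10.8% rose and 5.04% fell in GF, against 8.16% and 5.8% without it. In CON these shares were 5.08% and 1.52%, against 2.33% and 1.48%. In exGF they were 6.6% and 3.81%, against 4.59% and 3.19%.

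For *P4ha1*, 4 of 15 genes of collagen prolyl and lysyl hydroxylation rose in GF and 0 fell. They were its paralog *P4ha2* (0.71, SE 0.18, edgeR adjusted p = 0.026), the shared subunit *P4hb* (0.25, 0.0417), the collagen chaperone *Serpinh1* (0.64, 0.0129) and the collagen glycosyltransferase *Colgalt2* (0.37, 0.0992). *P4ha3* was at -0.20 (edgeR adjusted p = 0.687), and none of the 15 passed in CON or exGF. Among 19 other hypoxia-inducible factor targets 3 rose and 1 fell in GF, 2 rose in CON and 0 passed in exGF. *Bhlhe40* rose by 0.90 in GF (edgeR adjusted p = 0.0101) and 0.64 in CON (0.0681), with -0.0037 in exGF (0.991). *Pfkfb3* (0.56, 0.068) and *Vegfa* (0.26, 0.0897) rose and *Ankrd37* fell by 0.47 (0.0335) in GF, and the glucose transporter *Slc2a1* rose in CON (0.61, 0.0971).

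For *Gpt2*, no other aminotransferase passed upwards. Of 10 tested 1 fell in GF (*Kyat1*, -0.42, edgeR adjusted p = 0.0732), 3 fell in exGF (*Got1*, *Got2* and *Abat*, between -0.30 and -0.25) and 0 passed in CON. The cytosolic paralog *Gpt* was at 0.11 in GF (edgeR adjusted p = 0.72). Of 19 targets of ATF4, the stress factor that induces *Gpt2*, 5 rose in GF and 0 fell, namely *Ddit3* by 0.62 (edgeR adjusted p = 0.00597), *Atf3* by 1.75 (0.0237), *Atf5* by 0.44 (0.0656), *Nupr1* by 0.64 (0.092) and the transporter subunit *Slc3a2* by 0.31 (0.0785). In CON 2 of 18 rose, *Ddit3* by 0.46 (0.0271) and the transporter *Slc7a5* by 0.37 (0.035), and in exGF 0 of 18 passed.

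For *Trib2*, 2 of 6 tested relatives and COP1 partners rose in each status and 0 fell. *Trib1* rose by 0.96 in GF (SE 0.27, edgeR adjusted p = 0.0343), with 0.52 in CON (0.335) and -0.0044 in exGF (0.995), and *Trib3* was too low to be tested. *Stk40*, a pseudokinase of the same clade, rose in all 3 statuses, by 0.60 in CON (0.0579), 0.52 in GF (0.0407) and 0.44 in exGF (0.0915), and *Cop1* itself rose in CON (0.32, 0.0701) and exGF (0.30, 0.0507). For *Ppp1r3c*, 1 of 27 other glycogen genes rose and 2 fell in GF, 1 rose and 2 fell in CON, and 1 rose in exGF. The single riser in CON (1.05, edgeR adjusted p = 0.0379) and in exGF (0.78, 0.0529) was *Ppp1r3g*, another glycogen-targeting subunit. In GF the catalytic subunit *Ppp1cb* rose by 0.24 (0.0742), and *Phkg2*, a phosphorylase kinase subunit, and *Epm2a*, a glycogen phosphatase, fell by 0.30 (0.0302) and 0.24 (0.0891). In CON the lysosomal glucosidase *Gaa*, which degrades glycogen, fell by 0.47 (0.0726).

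For *Ccdc6*, 4 of 12 CREB factors and PP4 subunits rose in GF, 3 in exGF and 2 in CON, and 0 fell. *Creb1* rose by 0.44 in GF (edgeR adjusted p = 0.00145), with 0.17 in CON (0.21) and 0.19 in exGF (0.153). The PP4 regulatory subunit *Ppp4r3a* rose by 0.43 in GF (0.00199), 0.35 in exGF (0.0306) and 0.26 in CON (0.0941), and *Crem* by 0.50 (0.0447), 0.77 (0.0413) and 0.76 (0.022). *Ppp4r2* rose in GF (0.32, 0.011) and exGF (0.31, 0.043). For *Brca2*, 4 of 28 genes of homologous recombination and the Fanconi anaemia pathway fell in GF and 1 rose. *Xrcc3*, which also acts in homologous recombination, fell from 4.63 ± 1.24 to 2.24 ± 0.635 CPM (log2 fold change -1.04, SE 0.22, edgeR adjusted p = 0.00913), and *Blm* (-0.67, 0.0163), *Palb2*, the partner of *Brca2* (-0.67, 0.0825), and *Fance* (-0.56, 0.0136) fell too, while *Sem1* rose (0.47, 0.0359). *Brca1* was at 0.22 (edgeR adjusted p = 0.582). In exGF 2 of 27 fell, *Xrcc3* (-0.89, 0.0389) and *Rad51d* (-0.39, 0.0446), and *Rbbp8* rose (0.54, 0.0629), and in CON *Rad50* fell (-0.38, 0.067). In CON and exGF all such counts rest on fits with the *Gm42418*-rich libraries: without them, 26 genes of the whole table passed in CON and 155 in exGF, against 566 and 1161.

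**Figure D4:**
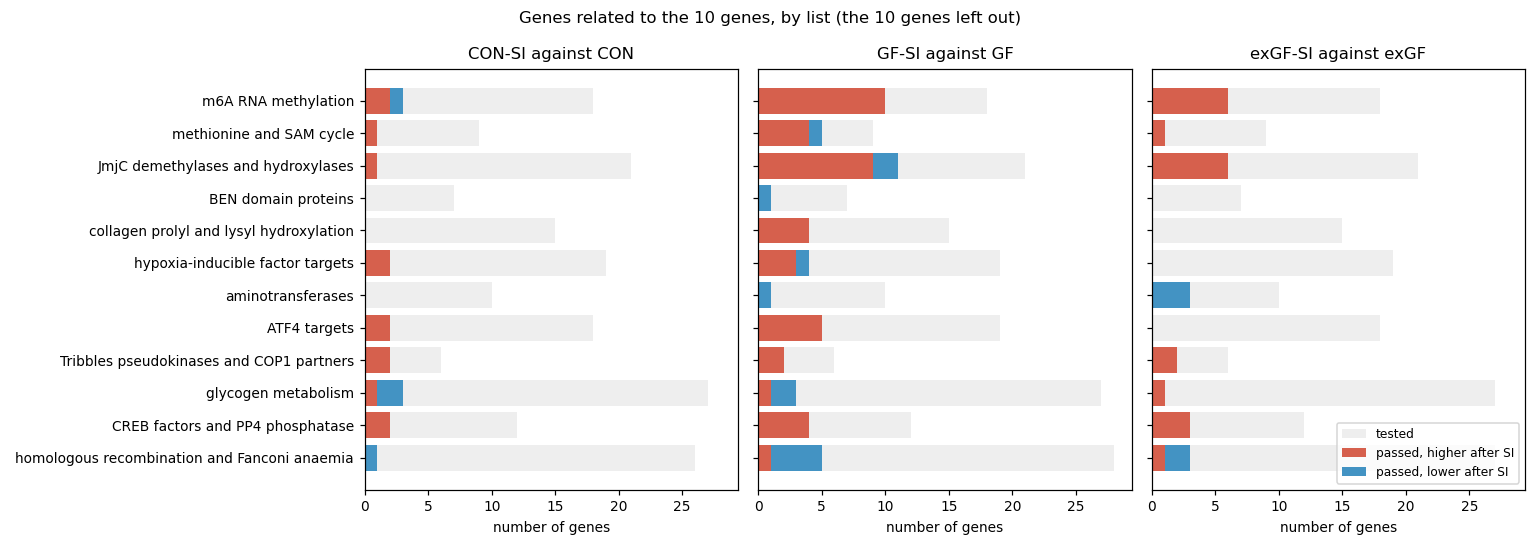
Number of genes (x axis) tested (grey), higher after SI (red) and lower after SI (blue) by edgeR at an adjusted p below 0.1, for the 12 lists of genes related to the 10 genes, which are left out, in CON, GF and exGF mice. The m6A list has the most risers in GF, 10 of 18.

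Across the 40 libraries the levels of the 9 genes that rose went together, with Pearson correlations of log2 CPM from 0.488 to 0.91 over the 36 pairs (median 0.737), while those with *Brca2* ran from -0.806 to -0.563 over 9 pairs. These values reflect the shift between naive and SI libraries on which the genes were picked. Taken as deviations from the group means, the 36 correlations had a median of 0.0675 and ranged from -0.354 to 0.627. Among 14021 other genes with a mean of at least 1 CPM, the genes most like *Banp* over the 40 libraries were *P4ha1* (r = 0.91), *Per2* (0.891) and *Mtmr4* (0.879). Those most like *Kdm7a* were *Bcor* (0.903), *Homer1* (0.903) and *Sik2* (0.902), and those most like *P4ha1* were *Pdia4* (0.917), *Banp* (0.91) and *Ddx50* (0.903). *Mettl16* was most like *Hsp90b1* (0.898), *Tra2a* (0.885) and *Dnajb11* (0.876), and *Ccdc6* most like *Hsph1* (0.852), *Rybp* (0.845) and *Ankrd17* (0.836). For *Ppp1r3c* they were *Fosb* (0.91), *Zswim6* (0.903) and *Hspa8* (0.896), and for *Trib2* *Irf2bp2* (0.852), *Ppp1r15b* (0.848) and *Synj2* (0.848). For *Gpt2* they were *Sgms1* (0.859), *Naa25* (0.825) and *Irak2* (0.821), for *9330159F19Rik* *Arih1* (0.887), *Dmxl1* (0.86) and *Usp31* (0.855), and for *Brca2* *Spata7* (0.787), *Atad5* (0.773) and *Zc3h6* (0.758).

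Whether the genes also varied with the known responses from mouse to mouse was examined within each SI group, since the choice of genes used the group means. For each mouse 3 scores were formed as the mean log2 CPM of 14 immediate early genes, 14 chaperones and 14 glucocorticoid-induced genes. Over 90 relations, 5 passed a Benjamini-Hochberg adjusted p of 0.1 by Pearson's r and 2 by Spearman's rho, and 13 had an unadjusted permutation p below 0.05.

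*Trib2* was higher in exGF-SI and CON-SI mice with higher immediate early scores. In exGF-SI mice r was 0.955 and rho 0.976 (n = 8, two-sided exact permutation p = 4.96e-05 and 0.000397, adjusted p = 0.00446 and 0.0357), and r was 0.939 without the 2 mice farthest from the median score and 0.951 without the mouse rich in *Gm42418*. In CON-SI r was 0.871 and rho 0.857 (n = 8, exact permutation p = 0.00407 and 0.0107, adjusted p = 0.0853 and 0.241), falling to 0.563 without the 2 farthest mice. In GF-SI, the largest group, the relation did not pass (r = 0.453, rho = 0.462, n = 12, permutation p = 0.138 and 0.135, adjusted p = 0.454 and 0.528). The lower and the upper set of 6 mice described above for this group were drawn after the values were seen and were not tested.

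*Brca2* was lower in exGF-SI mice with higher chaperone scores. In exGF-SI r was -0.957 and rho -0.952 (n = 8, exact permutation p = 0.000471 and 0.00114, adjusted p = 0.0212 and 0.0514), with -0.936 without the 2 farthest mice and -0.953 without the *Gm42418*-rich mouse. The same relation did not pass in CON-SI (r = -0.787, rho = -0.762, n = 8, exact permutation p = 0.0213 and 0.0368, adjusted p = 0.213 and 0.331), where r was -0.913 without the 2 farthest mice. Nor did it pass in GF-SI (r = -0.597, rho = -0.539, n = 12, permutation p = 0.0397 and 0.0764, adjusted p = 0.298 and 0.509), where it rested on the 2 farthest mice (r = -0.189 without them). *P4ha1* rose with the chaperone score in GF-SI (r = 0.782, rho = 0.671, n = 12, permutation p = 0.00228 and 0.0204, adjusted p = 0.0684 and 0.307, and r = 0.529 without the 2 farthest mice). In exGF-SI this r was larger but did not pass, at 0.825 (n = 8, exact permutation p = 0.0124, adjusted p = 0.139), with 0.874 without the 2 farthest mice. In CON-SI it was 0.512 (n = 8, exact permutation p = 0.195, adjusted p = 0.488), with -0.137 without them. *Ppp1r3c* rose with the immediate early genes in GF-SI (r = 0.736, rho = 0.671, n = 12, permutation p = 0.00474 and 0.0205, adjusted p = 0.0853 and 0.307, and r = 0.608 without the 2 farthest mice). Its r with these genes was also larger in exGF-SI without passing, at 0.863 (n = 8, exact permutation p = 0.0075, adjusted p = 0.113), with 0.767 without the 2 farthest mice. In CON-SI it was 0.61 (n = 8, exact permutation p = 0.105, adjusted p = 0.406), with -0.202 without them. The glucocorticoid score gave 0 adjusted passes in the 3 groups, with 1 unadjusted permutation p below 0.05. No batch is given in the labels, so these relations were not split further, and differences between the groups in r were not tested.

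**Figure D5:**
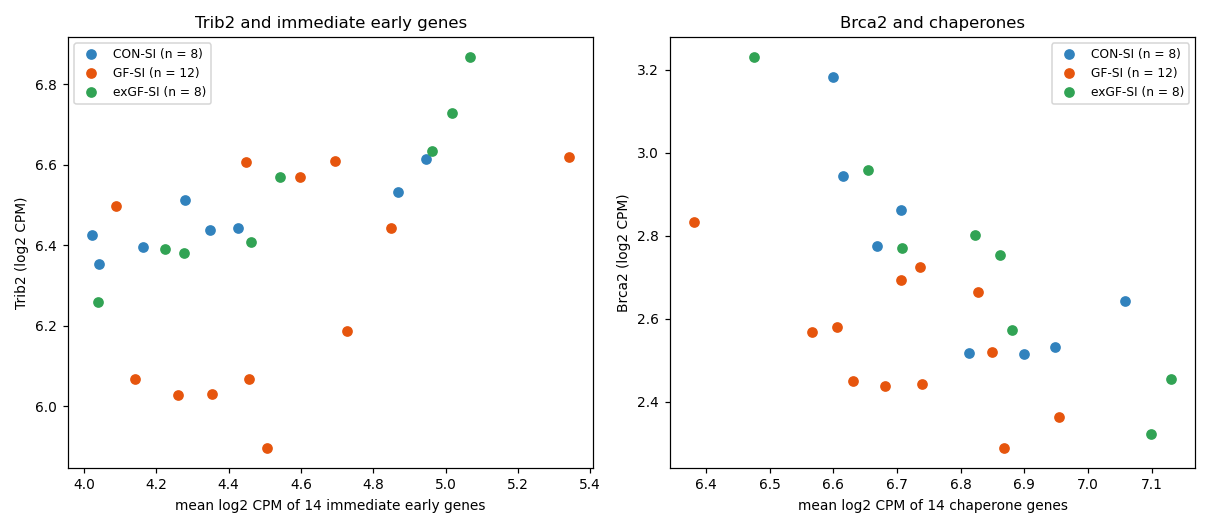
Each point is 1 mouse after SI. Left, *Trib2* (y axis, log2 CPM) against the mean log2 CPM of 14 immediate early genes (x axis). Right, *Brca2* (log2 CPM) against the mean of 14 chaperones. The exGF-SI mice (green, n = 8) give r = 0.955 on the left and r = -0.957 on the right.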

How the data were processed

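Ribosomal RNA-depleted, stranded libraries from 40 amygdala samples were sequenced in paired reads of 100 bases. Per the submitters' processing notes and the study's methods, the authors trimmed reads with Trimmomatic 0.32, aligned them to GRCm38 with STAR 2.4.0f1 and deposited raw gene counts made with HTSeq 0.6.0 (Ensembl 78, strand ignored). Column names gave each library's group but not its sample number. Symbols came from GENCODE for GRCm38 (42462 of 43629 IDs).

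The 10 genes, the pathway lists and the limit that calls a library rich in *Gm42418* (5% of counts) were chosen with earlier results of these data known. Counts were tested with edgeR 4.0.16 (TMM, filterByExpr, quasi-likelihood, 1 fit per comparison, R 4.3.3). Genes passed at a Benjamini-Hochberg adjusted p below 0.1, the study's threshold. Standard errors are the log2 fold change divided by the root of F. The procedure was tested on simulated counts. DESeq2 1.42.0, RLE scaling, no low-count filter, 1 fit over the 6 groups, removal of the rich libraries and of each library in turn were the alternatives. Removing an exGF-SI mouse from the mouse-to-mouse relations, and the rich libraries from the differences between responses, was added after seeing the data. CPM used TMM-scaled totals, and log2 CPM a prior count of 2. Levels per length used the union of exons. Relations among 8 mice enumerated all 40320 orders, and those among 12 used 100000 permutations.

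Named genes were the 10, up to 3 genes per pathway list with the smallest p in GF-SI against GF, the closest relatives, and the 3 genes most correlated with each of the 10 over the 40 libraries. P-values measure the spread between mice in SI groups and between pools in naive groups. The values of 1 gene of the glycogen list are not reported here.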

Additional observations from a re-analysis of the deposited data

Results flagged for a closer look

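By Dixon's gap test, 3 values stood apart from the rest of their group, out of 50 gene and group pairs of 4 to 10 libraries examined, a test that chance passes in about 1 in 20 groups. *Banp* was at 18.87 CPM in CON-P4, with the next CON pool at 15.3 CPM, a gap of 0.83 of the group's range. *Banp* was at 40.22 CPM in CON-S11, with the next CON-SI mouse at 32.5 CPM and a gap of 0.55 of the range. *Trib2* was at 63.0 CPM in CON-P2, with the next CON pool at 57.1 CPM and a gap of 0.912 of the range. Each of these libraries lay on the same side of the other state as the rest of its group.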

How the results depend on the processing

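The log2 fold changes of the 10 genes kept their sign wherever they were called under all alternatives tried. No paired analysis was possible because the library names carry no number that ties libraries of different groups. Without the *Gm42418*-rich libraries, calls fell from 566 to 26 genes and from 9 to 4 of the 10 in CON-SI against CON, and from 1161 to 155 genes and from 9 to 5 of the 10 in exGF-SI against exGF, and were 2 for exGF against GF and 120 for exGF-SI against GF-SI, where 0 and 15 were called with them. DESeq2 called 961 genes in CON-SI against CON, 156 in GF against CON, 60 in exGF against CON, 72 in exGF against GF, 521 in GF-SI against CON-SI, 564 in exGF-SI against CON-SI and 300 in exGF-SI against GF-SI, where edgeR called 566, 21, 15, 0, 166, 195 and 15. Without a filter on low counts, edgeR called 722 in exGF-SI against exGF, 205, 84 and 80 in the naive comparisons in that order, and 3 in exGF-SI against GF-SI. With 1 fit over the 6 groups it called 969 in CON-SI against CON, 58, 9 and 3 in the naive comparisons, and 561, 522 and 135 after SI. Of the 10 genes, DESeq2 and the fit without a filter each called 1 in exGF against CON (*Banp*) and 3 in exGF against GF (*Banp*, *Kdm7a* and *P4ha1*), the 6-group fit called 1 in each (*Banp*), and DESeq2 and the 6-group fit each called 1 (*Gpt2*) in GF-SI against CON-SI. The cause of these changes was not tested. Where libraries were left out, the smaller number of samples cannot be told apart from the loss of those libraries.

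Leaving out each library in turn gave 194 to 778 genes in CON-SI against CON, 680 to 2596 in GF-SI against GF, 117 to 1397 in exGF-SI against exGF, 9 to 29 in GF against CON, 13 to 21 in exGF against CON, 0 to 3 in exGF against GF, 71 to 694 in GF-SI against CON-SI, 57 to 364 in exGF-SI against CON-SI and 2 to 185 in exGF-SI against GF-SI. The calls among the 10 genes ran from 5 to 9, 9 to 10 and 5 to 9 in the responses, and from 0 to 1 in GF-SI against CON-SI. *Ccdc6* lost its call in 7 of 12 fits in CON and 10 of 12 in exGF, *Mettl16* in 8 of 12 in exGF, *Brca2* in 6 of 12 in CON, *Trib2* in 2 of 16 in GF (GF-P3, GF-P4) and 3 of 12 in exGF (exGF-P2, exGF-P3, exGF-P4), *Kdm7a* in 2 of 12 in CON (CON-P3, CON-P4) and 4 of 12 in exGF (exGF-P2, exGF-P3, exGF-P4, exGF-S10), *Gpt2* in 2 of 12 in CON (CON-P1, CON-P2), and *9330159F19Rik* in 4 of 12 in CON, each a fit without a CON pool. *Gpt2* passed in GF-SI against CON-SI without CON-S7 or without GF-S9. The lowest counts came without CON-P3, GF-P3 and exGF-P4 in the 3 responses and the highest without CON-S2, GF-S1 and exGF-S5.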
